A study of Mus musculus with 3 samples.

Results

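The genes of glycolysis, the pentose phosphate pathway and pyruvate use were compared between 3 dendritic cell (DC) subsets of mouse spleen. They are 42 named genes, taken as the Affymetrix probe sets whose platform annotation gives 1 of these symbols and no other gene. Such probe sets, 80 of the 45101 on the array, were found for 38 of the 42 genes, out of 18194 genes with a probe set of their own. The genes Gpi1, Pfkfb1, Eno1 and G6pdx had none under this rule and were not analysed here. Plasmacytoid DC (pDC), CD8+ conventional DC (CD8+ cDC) and CD11b+ conventional DC (CD11b+ cDC) were flow-sorted from naive female C57bl/6 mice of 6 to 8 weeks after magnetic depletion of T and B cells. All 3 groups share this strain, sex, age and sorting scheme. The sample names give CD8 and CD11b for the conventional subsets, and the proteins that defined the pDC gate are not stated in the labels. Each subset is 1 array of RNA pooled from 5 to 8 mice, so no spread between animals could be measured. No p-value or standard error is therefore given, and the subset cannot be told apart from its sort, its amplification and its hybridisation.

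Glycolysis splits glucose into pyruvate, yielding ATP and NADH without oxygen. The pentose phosphate pathway branches from it to make NADPH and ribose for nucleotides. Pyruvate is either reduced to lactate by lactate dehydrogenase or carried into the mitochondrion and oxidised by the pyruvate dehydrogenase complex, which the pyruvate dehydrogenase kinases switch off. Many steps are run by tissue-specific isozymes encoded by separate genes. In DC, stimulation through Toll-like receptors is known to raise glycolysis.

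Signals are the deposited intensities at the brightest probe set of each gene, by mean log2 signal over the arrays. A background level of 111 was set from 87 probe sets of olfactory, vomeronasal, trace amine and taste receptors, and dimmer values were raised to it before a fold was taken. A difference of at least 2-fold was called if the brighter signal exceeded background, and a fold against an array at background is written as at least that size. Of the 38 genes, 35 exceeded background on at least 1 array. Pdk2, Pdk4 and Fbp1, which encode 2 pyruvate dehydrogenase kinases and the gluconeogenic fructose bisphosphatase, lay below it on all 3. Of the 35, 21 were called in at least 1 of the 3 pairs of subsets, against 41.2% of the 11011 genes above background on any array, and 14 in none.

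Markers of the named subsets were present, with exceptions. All 9 measured pDC markers were called higher in pDC than in either conventional subset. Of 9 CD8+ cDC markers, 9 were called lower in pDC than in CD8+ cDC and 7 higher in CD8+ cDC than in CD11b+ cDC. Batf3 and Wdfy4 were the 2 not called between the conventional subsets, Xcr1 exceeded background in CD8+ cDC only, and Cd8a and Cadm1 were called higher in pDC than in CD11b+ cDC. Of 7 CD11b+ cDC markers, 6 were called lower in CD8+ cDC than in CD11b+ cDC, 5 were lower in pDC than in CD11b+ cDC, and Cd4 was higher in pDC (37302) than in CD11b+ cDC (14501). Of 7 B cell markers, 4 exceeded background on each array (sums 182866, 72039 and 236389 in pDC, CD8+ cDC and CD11b+ cDC). These were Ighm, Ms4a1, Cd22 and Cd79b, while Cd79a, Pax5 and Ebf1 were at background. Of 6 T cell markers 2, 1 and 1 exceeded it (sums 5412.5, 735.5 and 3129), with Cd5 and Cd28 above it in pDC and Cd3d, Cd3e and Cd3g below it on all arrays. Of 7 NK cell markers 2, 3 and 3 did (sums 829.9, 1523.5 and 1396), Klrk1 and Gzma among them, with Ncr1 and Prf1 below it on all. Neutrophil markers summed to 2735 in pDC, 1445 in CD8+ cDC and 17215 in CD11b+ cDC, with 7, 6 and 7 of 8 above background and Cxcr2 below it on each. Monocyte and macrophage markers summed to 43930 (9 of 9 above background), 132768 (9 of 9) and 330024 (9 of 9), and 4 of 5 erythroid markers were above background on each array (sums 15711, 12043 and 18183), with Hba-a1 below it. Cell cycle genes summed to 95136 in pDC (21 of 27 above background), 421608 in CD8+ cDC (27 of 27) and 580550 in CD11b+ cDC (27 of 27). The part of these cells and of cycling in the differences below was not tested. Fewer cells of a type and less RNA per cell cannot be told apart in such pooled samples.

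The isozyme genes divided between the subsets. In pDC the muscle phosphoglycerate mutase gene Pgam2 and the heart-type lactate dehydrogenase gene Ldhb stood out, while Hk2, Pfkfb3, Eno2 and Eno3 were lowest there. In CD8+ cDC the hexokinase gene Hk3, the phosphofructokinase gene Pfkp and the phosphoglycerate kinase gene Pgk1 were highest. In CD11b+ cDC Eno3 was highest and Aldoc lowest. Pdhb and Dlat of the pyruvate dehydrogenase core, Pfkl and the transketolase gene Tkt stayed below 2-fold in all 3 pairs at their brightest probe sets. The plot of signals by gene shows this spread.

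**Figure D1:**
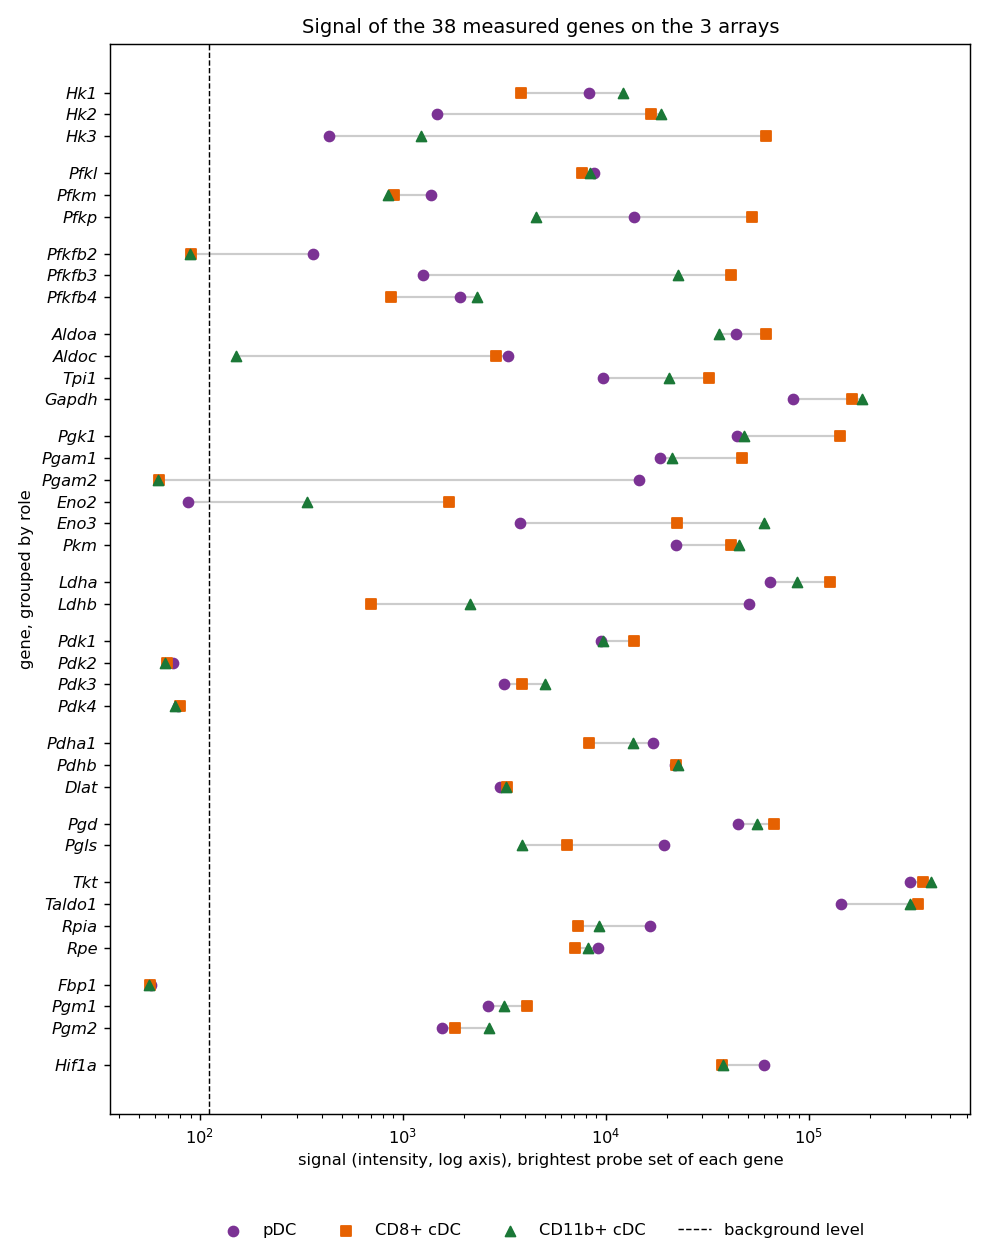
Signal of each of the 38 genes at its brightest probe set (x axis, intensity on a log scale; genes in rows, grouped by role), with 1 point per array for pDC, CD8+ cDC and CD11b+ cDC and a dashed line at the background level of 111. Pgam2 lies at 14589 in pDC and below background in both conventional subsets, and Hk3 at 61710 in CD8+ cDC against 434 in pDC and 1229 in CD11b+ cDC.

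Pgam2, Ldhb and Hk3 held the largest differences of the list, and Hk2 and Pgk1 were picked for their known HIF response. Other genes, Pfkfb3, Aldoc and Eno3 among them, differed more than Hk2 and Pgk1 and are not shown. Promoter windows of these 5 picked genes are printed here, and the motif positions below refer to them. They are RefSeq windows of build GRCm38.p6, from 250 bases before to 50 bases after the annotated start, read 5′ to 3′ along the gene. All 38 genes had such a window. Pgam2 lies at chr11:5803747-5804046, minus strand, Ldhb at chr6:142507908-142508207, minus strand, Hk3 at chr13:55021336-55021635, minus strand, Hk2 at chr6:82774405-82774704, minus strand and Pgk1 at chrX:106186850-106187149, plus strand. Capitals mark the motif letters ACGTG and GCGTG, the core of the hypoxia response element bound by HIF, on either strand (CACGT and CACGC when read from the other strand), and in Pgam2 a match to the MEF2 consensus of muscle genes.
Pgam2: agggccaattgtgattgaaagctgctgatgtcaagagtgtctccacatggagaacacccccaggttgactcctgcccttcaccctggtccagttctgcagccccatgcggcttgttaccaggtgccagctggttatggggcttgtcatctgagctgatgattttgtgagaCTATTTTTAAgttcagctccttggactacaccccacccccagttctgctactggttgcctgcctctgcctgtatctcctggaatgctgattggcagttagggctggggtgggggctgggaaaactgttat
Ldhb: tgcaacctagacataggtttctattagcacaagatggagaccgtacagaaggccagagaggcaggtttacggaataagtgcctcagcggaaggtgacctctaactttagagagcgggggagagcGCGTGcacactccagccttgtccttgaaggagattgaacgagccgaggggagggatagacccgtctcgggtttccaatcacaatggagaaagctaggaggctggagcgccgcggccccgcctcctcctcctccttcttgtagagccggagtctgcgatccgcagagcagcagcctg
Hk3: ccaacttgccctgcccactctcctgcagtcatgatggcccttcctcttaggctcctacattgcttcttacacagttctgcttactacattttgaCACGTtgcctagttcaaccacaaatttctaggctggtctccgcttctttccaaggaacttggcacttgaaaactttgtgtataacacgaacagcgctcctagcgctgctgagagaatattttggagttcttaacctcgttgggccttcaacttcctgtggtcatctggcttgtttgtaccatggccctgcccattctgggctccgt
Hk2: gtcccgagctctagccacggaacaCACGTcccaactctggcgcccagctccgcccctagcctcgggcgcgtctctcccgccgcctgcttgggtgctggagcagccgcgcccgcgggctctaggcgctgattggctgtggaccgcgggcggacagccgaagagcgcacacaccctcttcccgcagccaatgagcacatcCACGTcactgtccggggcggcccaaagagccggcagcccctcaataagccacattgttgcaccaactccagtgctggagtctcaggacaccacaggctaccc
Pgk1: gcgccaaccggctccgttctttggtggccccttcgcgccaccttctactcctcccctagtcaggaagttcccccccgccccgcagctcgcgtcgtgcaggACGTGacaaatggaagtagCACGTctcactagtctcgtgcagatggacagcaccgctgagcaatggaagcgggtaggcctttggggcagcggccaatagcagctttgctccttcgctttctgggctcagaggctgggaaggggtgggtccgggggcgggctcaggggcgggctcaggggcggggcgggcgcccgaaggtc
The MEF2 match in Pgam2 begins 80 bases before the start. Hk2 holds ACGTG on the opposite strand, 226 and 52 bases before its start, and Pgk1 holds it on each strand, 150 and 131 bases before. Hk3 has 1 such match 156 bases before, and Ldhb has GCGTG 126 bases before.

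Over all windows of the 38 genes, ACGTG on either strand was present in 23 of 53 (43.4%). It was present in 19.6% of the 32851 windows in the table and in 20.9% of the 21262 windows of protein-coding genes. GCGTG was found in 27 of the 53 (50.9%), against 32.4% of all and 38.5% of protein-coding windows. The E-box CACGTG, which contains ACGTG, was found in 6 (11.3%, against 7.15% and 7.84%), and the MEF2 consensus in Pgam2 alone (1.89%, against 3.19% and 2.74%). The windows of the 38 genes had a median of 60.7% G and C and 17 CG dinucleotides, against 56.3% and 13 in protein-coding windows, and its part in the shares was not tested. These are letter matches and were chosen after the signals and the sequences had been seen. ACGTG or GCGTG was present in 40 of the 53 windows (75.5%), against 43.8% of all and 49.3% of protein-coding windows. Of the printed windows, those of Ldhb, high in pDC, and of Hk2 and Hk3, low in pDC, hold it. That of Pgam2, high in pDC, does not. The part of HIF in the differences was not tested.

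Hexokinases trap glucose in the cell by phosphorylating it, and each of the 3 genes had its own pattern. Hk3, the form known from myeloid cells, gave 434 in pDC, 61710 in CD8+ cDC and 1229 in CD11b+ cDC. It was thus 142-fold lower in pDC than in CD8+ cDC, 2.84-fold lower in pDC than in CD11b+ cDC, and its signal in CD8+ cDC was 50.2-fold that in CD11b+ cDC. Its other probe set gave 136-fold, 3.11-fold and 43.9-fold, the same order. Hk2, the insulin-responsive and inducible form, gave 1475 in pDC, 16729.5 in CD8+ cDC and 18778 in CD11b+ cDC. It was 11.3-fold and 12.7-fold lower in pDC, and the conventional subsets were within 1.12-fold of each other. Hk1, the form of most tissues, ran the other way against CD8+ cDC only, with 8309 in pDC, 3834 in CD8+ cDC and 12105 in CD11b+ cDC. Against CD11b+ cDC it was 1.46-fold lower in pDC, below the call. It was lowest in CD8+ cDC, 2.17-fold below pDC and 3.16-fold below CD11b+ cDC, and its dimmer probe set kept that order at 1.91-fold and 2.66-fold.

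Phosphofructokinase commits sugar to glycolysis, and its subunits come from 3 genes. The platelet-type subunit gene Pfkp gave 13809 in pDC, 52364 in CD8+ cDC and 4549 in CD11b+ cDC. It was 3.79-fold lower in pDC than in CD8+ cDC, 3.04-fold higher in pDC than in CD11b+ cDC, and its signal in CD8+ cDC was 11.5-fold that in CD11b+ cDC. Its other 2 probe sets never exceeded 243 and gave floored folds of 1.62 or less, with 1 CD11b+ cDC reading below background. The liver-type subunit gene Pfkl gave 8753, 7634 and 8401 in pDC, CD8+ cDC and CD11b+ cDC, and the muscle-type gene Pfkm gave 1376, 904 and 851. Neither was called in any pair at these probe sets, though the dimmest of 3 for Pfkl was 2.16-fold higher in pDC than in CD8+ cDC.

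The PFKFB enzymes make and remove the sugar phosphate that activates phosphofructokinase. Pfkfb3, the inducible form with mainly kinase activity, gave 1257 in pDC, 41640.1 in CD8+ cDC and 22771 in CD11b+ cDC. It was 33.1-fold lower in pDC than in CD8+ cDC and 18.1-fold lower than in CD11b+ cDC. The conventional subsets differed 1.83-fold, below the call. A second, dim probe set of Pfkfb3 read 159, 191 and 139 and differed by 1.38-fold or less. Pfkfb4 gave 1918 in pDC, 873 in CD8+ cDC and 2335 in CD11b+ cDC, and so was lowest in CD8+ cDC, by 2.20-fold and 2.67-fold. Pfkfb2 was above background at 1 of 4 probe sets and in pDC only (361), at least 3.25-fold over either conventional subset.

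Among the aldolase and triose phosphate genes, Aldoc set CD11b+ cDC apart at its brightest probe set. Aldoc, the brain-type aldolase gene, gave 3312 in pDC, 2884 in CD8+ cDC and 150.1 in CD11b+ cDC. The CD11b+ cDC signal was 22.1-fold below that of pDC and 19.2-fold below that of CD8+ cDC. Its second probe set read 798, 211 and 104, which places CD8+ cDC 3.79-fold below pDC, where the first gave 1.15-fold. There CD11b+ cDC lay at least 7.18-fold below pDC but at least 1.89-fold below CD8+ cDC, a bound under the call. Aldoa, the common aldolase gene, gave 43929 in pDC, 61407 in CD8+ cDC and 36155 in CD11b+ cDC, and the largest difference at this probe set was 1.70-fold, between the conventional subsets. Of its 4 other probe sets, 1 passed the call in that pair at 2.05-fold. Tpi1, encoding triose phosphate isomerase, gave 9705 in pDC, 32432 in CD8+ cDC and 20599 in CD11b+ cDC. It was 3.34-fold and 2.12-fold lower in pDC, and all 3 of its probe sets passed 2-fold in both pairs.

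Gapdh, whose enzyme makes the first NADH of the pathway and which is often used as a reference gene, was measured by the array's control probe sets at 3 places along the transcript. The 3′ probe set gave 83549 in pDC, 163387 in CD8+ cDC and 182242 in CD11b+ cDC. At the 3′ end, the middle and the 5′ end it was 2.18-fold, 2.85-fold and 3.66-fold lower in pDC than in CD11b+ cDC. Against CD8+ cDC the same probe sets gave 1.96-fold, 2.09-fold and 1.81-fold lower in pDC. Between CD8+ cDC and CD11b+ cDC they gave 1.12-fold, 1.36-fold and 2.02-fold, lower in CD8+ cDC. The 3′ to 5′ signal ratio of Gapdh, a measure of RNA integrity and of amplification from the 3′ end, was 16.2 in pDC, 17.6 in CD8+ cDC and 9.68 in CD11b+ cDC. That ratio for Actb was 5.71, 4.08 and 2.91, and its part in the differences of other genes was not tested.

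The payoff steps carry the remaining triose phosphates to pyruvate. Pgam2, encoding the muscle phosphoglycerate mutase, gave 14589 in pDC, 63.1 in CD8+ cDC and 62.2 in CD11b+ cDC at its only probe set. It was at least 131-fold higher in pDC than in either conventional subset, both of which lay below background. Pgam1, the gene of the broadly expressed mutase, went the other way, with 18625 in pDC, 47102 in CD8+ cDC and 21115 in CD11b+ cDC. It was 2.53-fold lower in pDC than in CD8+ cDC and stood 2.23-fold higher in CD8+ cDC than in CD11b+ cDC, while pDC and CD11b+ cDC lay within 1.13-fold.

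The enolase isozyme genes differed in which conventional subset held the most. Eno3, the muscle enolase gene, gave 3773 in pDC, 22429 in CD8+ cDC and 60595 in CD11b+ cDC. It was 5.95-fold and 16.1-fold lower in pDC, and 2.70-fold lower in CD8+ cDC than in CD11b+ cDC. Eno2, the neuronal enolase gene, gave 87.6 in pDC, which is below background, 1692 in CD8+ cDC and 336 in CD11b+ cDC. It was at least 15.2-fold and at least 3.02-fold lower in pDC, and its signal in CD8+ cDC was 5.04-fold that in CD11b+ cDC. Pgam2 and Eno3 are both muscle isozyme genes, and they were highest in different subsets.

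Pgk1, encoding the first ATP-yielding enzyme, gave 44204 in pDC, 142041 in CD8+ cDC and 47841 in CD11b+ cDC. It was 3.21-fold lower in pDC than in CD8+ cDC and stood 2.97-fold higher in CD8+ cDC than in CD11b+ cDC, and all 3 probe sets passed 2-fold in both pairs. Pkm, encoding pyruvate kinase, gave 22114 in pDC, 41318 in CD8+ cDC and 45532 in CD11b+ cDC. Pkm was 2.06-fold lower in pDC than in CD11b+ cDC and 1.87-fold lower than in CD8+ cDC, on either side of the call.

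**Figure D2:**
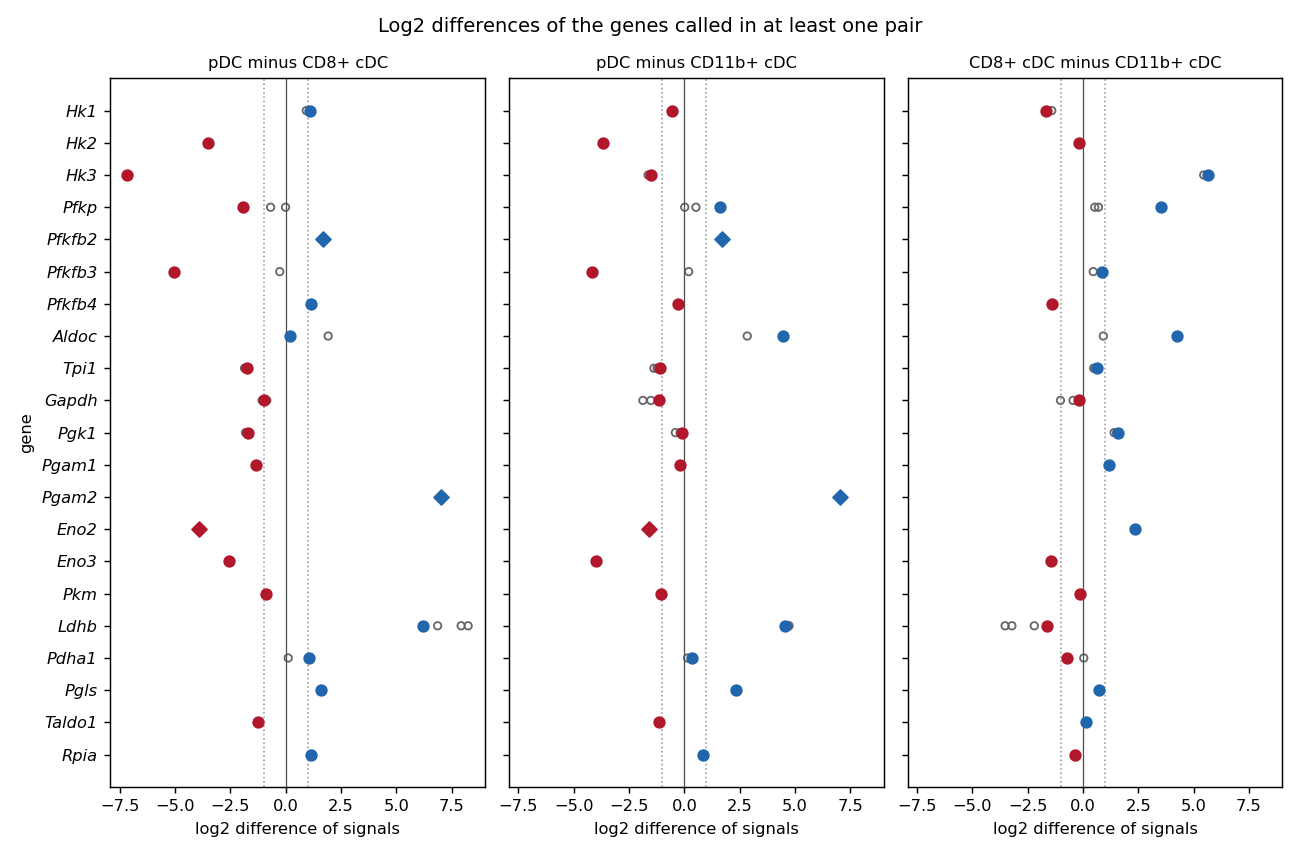
Log2 differences of signals (x axis) for the 21 genes called in at least 1 pair, in 1 panel per pair. Filled symbols are the brightest probe set (blue higher and red lower in the first-named subset; diamonds are lower bounds against an array at background), open circles are the other probe sets above background (floored where 1 array was below it), and dotted lines mark 2-fold. Every probe set of Ldhb and Hk3 passes 2-fold in all 3 panels, while for Pfkp the brightest alone does, as for Pfkfb3 in both pDC panels.

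Lactate dehydrogenase is built of a muscle-type chain from Ldha and a heart-type chain from Ldhb. Ldhb gave 50562 in pDC, 694 in CD8+ cDC and 2149 in CD11b+ cDC. It was 72.8-fold and 23.5-fold higher in pDC, and 3.10-fold lower in CD8+ cDC than in CD11b+ cDC. Its 3 other probe sets gave 117-fold, at least 304-fold and at least 244-fold over CD8+ cDC, and 25.4-fold to 26.5-fold over CD11b+ cDC, so all 4 had the same order of subsets. Ldha gave 64503 in pDC, 127040 in CD8+ cDC and 87490 in CD11b+ cDC. It was 1.97-fold lower in pDC than in CD8+ cDC, just inside the 2-fold limit, and was not called in any pair.

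Of the 3 pyruvate dehydrogenase genes, 1 was called in 1 pair. Pdhb, encoding a subunit of the decarboxylating enzyme, gave 21954 in pDC, 22173 in CD8+ cDC and 22638 in CD11b+ cDC, and Dlat, the acetyltransferase core, gave 3002, 3251 and 3212. Both stayed within 1.08-fold at these probe sets, though the dimmest probe set of Dlat was 2.83-fold higher in pDC than in CD8+ cDC. Pdha1, encoding the subunit that the kinases phosphorylate, gave 17156 in pDC, 8264 in CD8+ cDC and 13683 in CD11b+ cDC. It was called 2.08-fold higher in pDC than in CD8+ cDC, but its second probe set differed 1.08-fold. Of the kinases, Pdk1, a HIF target, gave 9471, 13838 and 9678 and Pdk3 gave 3157, 3865 and 4999 in pDC, CD8+ cDC and CD11b+ cDC, and neither was called.

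The pentose phosphate genes split by enzyme. Pgls, the lactonase of the oxidative arm, gave 19353 in pDC, 6417 in CD8+ cDC and 3883 in CD11b+ cDC. It was 3.02-fold and 4.98-fold higher in pDC. Pgd, the next dehydrogenase and a source of NADPH, gave 44769, 67177 and 55706 in pDC, CD8+ cDC and CD11b+ cDC and was not called. Rpia, the ribose phosphate isomerase of the non-oxidative arm, gave 16447 in pDC, 7341 in CD8+ cDC and 9304 in CD11b+ cDC, which made it 2.24-fold and 1.77-fold higher in pDC. Taldo1, encoding transaldolase, gave 144855 in pDC, 345194 in CD8+ cDC and 317233 in CD11b+ cDC, and was 2.38-fold and 2.19-fold lower in pDC. Tkt, encoding transketolase, gave 317055, 368212 and 402555, and Rpe, the epimerase gene, 9159, 7061 and 8186, and neither was called. The dimmest of 3 probe sets of Tkt was 2.04-fold lower in pDC and 2.13-fold lower in CD8+ cDC than in CD11b+ cDC. The pDC array was thus the highest for Pgls and Rpia and the lowest for Taldo1.

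Hif1a, whose product drives many glycolytic genes when oxygen is low or the cell is stimulated, gave 60289 in pDC, 37295 in CD8+ cDC and 37924 in CD11b+ cDC. It was 1.62-fold and 1.59-fold higher in pDC and was not called at this probe set, while 2 dimmer ones gave 2.07-fold and 2.39-fold over CD8+ cDC. Against CD11b+ cDC these 2 gave 1.33-fold higher and 1.03-fold lower in pDC. The second of them was also 2.47-fold lower in CD8+ cDC than in CD11b+ cDC. The phosphoglucomutase genes, which link glycogen to glycolysis, were not called either. Pgm1 gave 2627, 4079 and 3145 and Pgm2 gave 1553, 1806 and 2664 in pDC, CD8+ cDC and CD11b+ cDC.

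The list was counted first for pDC against CD8+ cDC. Of the 35 genes with signal in this pair, 8 were higher and 10 lower in pDC, against 16.0% and 14.8% of all 10823 genes tested. That is 51.4% of the 35 called in either direction, against 30.8% of all genes, and the median log2 difference was -0.29, against 0.00 over all genes. Higher in pDC were Hk1, Pfkfb2, Pfkfb4, Pgam2, Ldhb, Pdha1, Pgls and Rpia. Lower were Hk2, Hk3, Pfkp, Pfkfb3, Tpi1, Pgk1, Pgam1, Eno2, Eno3 and Taldo1. With the arrays scaled on hybridisation spike-ins the split was 11 higher and 8 lower, and with ribosomal protein genes equalised it was 10 and 8. Each of these scalings dropped Pgam1 and Taldo1, and the mean over probe sets dropped Pfkp and Pdha1. Hif1a was called higher in pDC with spike-ins (log2 difference 1.33), with ribosomal protein genes (1.30) and, just at the 2-fold limit, as a mean over probe sets, and Pfkm with each scaling (1.24 and 1.21). Spike-ins also added Rpe, and the mean over probe sets Aldoc. The share of all calls that were higher in pDC moved in step, to 77.6% and 76.4%, from 51.9% as deposited.

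Against CD11b+ cDC, 6 of 35 genes were higher and 9 lower in pDC, where 15.0% and 14.3% of all 10793 genes were. The share called was 42.9%, against 29.3% of all genes, and the median log2 difference was -0.18, against 0.01. Pfkp, Pfkfb2, Aldoc, Pgam2, Ldhb and Pgls were higher in pDC, and Hk2, Hk3, Pfkfb3, Tpi1, Gapdh, Eno2, Eno3, Pkm and Taldo1 lower. This split depended on the scaling. It was 6 higher and 11 lower with spike-ins and 9 higher and 3 lower with ribosomal protein genes, which dropped Hk3, Tpi1, Gapdh, Eno2, Pkm and Taldo1 from the lower calls and added Pfkm, Rpia and Hif1a to the higher ones. With ribosomal protein genes the share of the list called was 34.3%, against 41.7% of all genes, so the list then lay below all genes. Of all calls, 51.2% were higher in pDC as deposited, 34.7% with spike-ins and 78.4% with ribosomal protein genes.

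CD8+ cDC and CD11b+ cDC differed at 10 genes of the list as deposited. Of the 33 with signal in this pair, 6 were higher in CD8+ cDC (Hk3, Pfkp, Aldoc, Pgk1, Pgam1 and Eno2), against 9.84% of all 10709 genes, and 4 were lower (Hk1, Pfkfb4, Eno3 and Ldhb), against 10.3%. The share called was 30.3%, against 20.1% of all genes, and the median log2 difference was 0.02, against 0.01. Spike-in scaling, which lowers the whole CD8+ cDC array by about 1 log2 unit against CD11b+ cDC, gave 4 higher and 16 lower (60.6% called, against 49.3% of all genes) and dropped Pgk1 and Pgam1, while the all-gene split moved to 7.82% higher from 49.0%. The 3 pairs share their arrays, so their counts are not separate evidence.

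**Figure D3:**
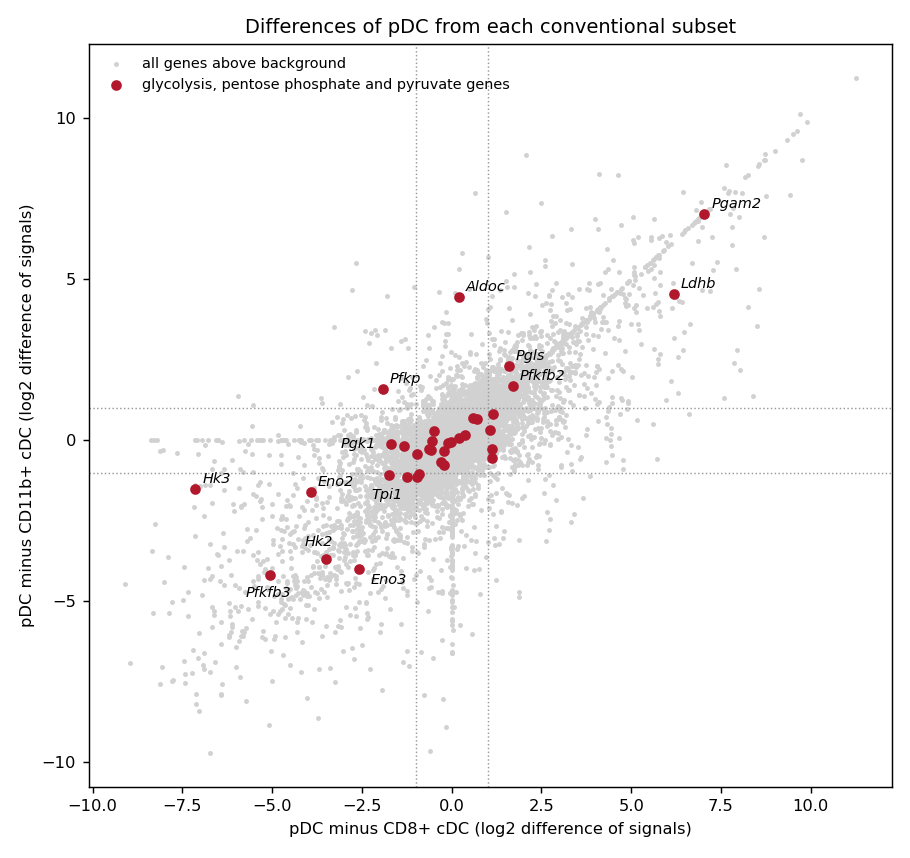
Log2 difference of pDC from CD8+ cDC (x axis) and from CD11b+ cDC (y axis) for all genes above background (grey) and the genes of the list (red), with dotted lines at 2-fold. Both axes share the pDC array. Pgam2 and Ldhb lie far up on the pDC side, Hk2, Pfkfb3, Eno2 and Eno3 on the opposite side, and Aldoc and Pfkp off the diagonal.

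Set against both other arrays at once, pDC was lowest by 2-fold or more for 7 of the 35 genes above background on any array (Hk2, Hk3, Pfkfb3, Tpi1, Eno2, Eno3 and Taldo1; 20.0%), against 8.56% of all 11011 genes. It was highest for 4 (Pfkfb2, Pgam2, Ldhb and Pgls; 11.4%), against 10.4%. CD8+ cDC was highest for 5 (Hk3, Pfkp, Pgk1, Pgam1 and Eno2; 14.3%), against 6.01%, and lowest for 3 (Hk1, Pfkfb4 and Ldhb; 8.57%), against 4.34%. CD11b+ cDC was highest for Eno3 only (2.86%, against 5.00%) and lowest for Pfkp and Aldoc (5.71%, against 2.98%). The pDC share of highest genes is thus near that of all genes. These counts depended on the floor and on the scaling. With the floor at 4 times the background level, pDC was highest for 3 of 34 genes (8.82%, against 10.2% of all genes). It was then lowest for 6 (17.6%, against 8.47%). Pfkfb2 lost its call in both pDC pairs with that floor, and Eno2 its call between pDC and CD11b+ cDC. Ribosomal protein scaling left Hk2, Pfkfb3 and Eno3 lowest in pDC (3 of 35, 8.57%, against 5.45% of all genes) and gave 7 highest in pDC (20.0%, against 22.7%). Spike-in scaling left Hk3, Pfkp and Eno2 highest in CD8+ cDC (3 of 35, 8.57%, against 2.69%). It gave 7 lowest in CD8+ cDC (20.0%, against 19.3%) and 6 highest in CD11b+ cDC (17.1%, against 14.0%).

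A further list held 51 other genes of these pathways, of which 47 were found. Of 32 tested between pDC and CD8+ cDC, 4 were higher and 6 lower (median -0.02), between pDC and CD11b+ cDC 2 and 3 of 31 (median 0.01), and between CD8+ cDC and CD11b+ cDC 4 and 3 of 32 (median 0.03). The shares called were 31.25%, 16.1% and 21.9%, against 30.8%, 29.3% and 20.1% of all genes. This list and those below were counted as deposited only, without the other scalings. Pygl, encoding a glycogen phosphorylase, gave 721 in pDC, 5876 in CD8+ cDC and 67655 in CD11b+ cDC, 8.15-fold and 93.8-fold lower in pDC. Tktl1, a transketolase-like gene, exceeded background in CD8+ cDC only (1280), at least 11.5-fold over either other array. Adpgk, an ADP-dependent glucokinase gene, was 3.44-fold and 7.55-fold higher in pDC, and Prps2, which activates ribose for nucleotide synthesis, 5.30-fold higher in pDC than in CD8+ cDC. Galm, the aldose epimerase gene, was 6.66-fold and 13.2-fold lower in pDC and Gpd2, of the glycerophosphate shuttle, 3.89-fold and 3.19-fold lower. As with Eno3, the level of Pygl was highest on the array with the most neutrophil and macrophage marker signal, and the part of such cells was not tested.

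Carriers of glucose, lactate and pyruvate were called for 6 of 10 between pDC and CD8+ cDC, 4 higher and 2 lower in pDC (median 0.41). The share called was 60%, against 30.8% of all genes. The glucose transporter gene Slc2a3 gave 46826 in pDC, 2104.5 in CD8+ cDC and 63994 in CD11b+ cDC. It was 22.3-fold higher in pDC than in CD8+ cDC, and it was 30.4-fold lower in CD8+ cDC than in CD11b+ cDC. Slc16a7, a monocarboxylate carrier, was at least 29.9-fold, Slc37a2, a sugar phosphate carrier, 19.4-fold and Slc2a6 3.79-fold higher in pDC than in CD8+ cDC. Lower in pDC than in CD8+ cDC were Slc37a1 (2.32-fold) and Slc16a1 (2.08-fold). Between pDC and CD11b+ cDC 3 of 10 were higher and 1 lower (median -0.03), 40% called against 29.3% of all genes. Between CD8+ cDC and CD11b+ cDC 0 were higher and 4 lower (median -0.27), 40% called against 20.1%. Among these 4 was Mpc1, a mitochondrial pyruvate carrier subunit, with 16540.5 in pDC, 10851 in CD8+ cDC and 24135 in CD11b+ cDC, 2.22-fold lower in CD8+ cDC than in CD11b+ cDC. CD8+ cDC thus held the highest signals of Hk3, Pfkp and Pgk1 and the lowest of Slc2a3.

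HIF pathway and hypoxia response genes showed no common direction. In pDC 4 were higher and 3 lower of 18 against CD8+ cDC (median 0.15), and 3 and 3 of 19 against CD11b+ cDC (median -0.05), while CD8+ cDC against CD11b+ cDC gave 2 and 3 of 18 (median 0.01). The shares called were 38.9%, 31.6% and 27.8%, against 30.8%, 29.3% and 20.1% of all genes. Egln1, an oxygen-sensing hydroxylase that marks HIF for destruction, was 2.03-fold and 2.09-fold higher in pDC. Vhl, of the ligase that then removes HIF, was 3.09-fold lower in pDC than in CD8+ cDC. Bnip3 was 2.23-fold and 2.59-fold higher in pDC. Bhlhe40 was 2.06-fold higher in pDC than in CD8+ cDC and 4.25-fold lower in pDC than in CD11b+ cDC. P4ha1 was 3.22-fold higher in pDC than in CD11b+ cDC. Ddit4, a stress-induced inhibitor of mTOR signalling, gave 2716 in pDC, 213 in CD8+ cDC and 9484 in CD11b+ cDC.

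The citric acid cycle takes up the acetyl group that the pyruvate dehydrogenase complex makes from pyruvate. Of its 16 genes, 1 was lower and 0 higher in pDC against CD8+ cDC (median -0.42), and the same counts held against CD11b+ cDC (median -0.31) and for CD8+ cDC against CD11b+ cDC (median -0.23). That gene was Mdh2, malate dehydrogenase, with 113805 in pDC, 232354 in CD8+ cDC and 592633 in CD11b+ cDC. The share of the cycle genes called was 6.25% in each pair, against 30.8%, 29.3% and 20.1% of all genes. The bar plot sets these shares side by side.

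**Figure D4:**
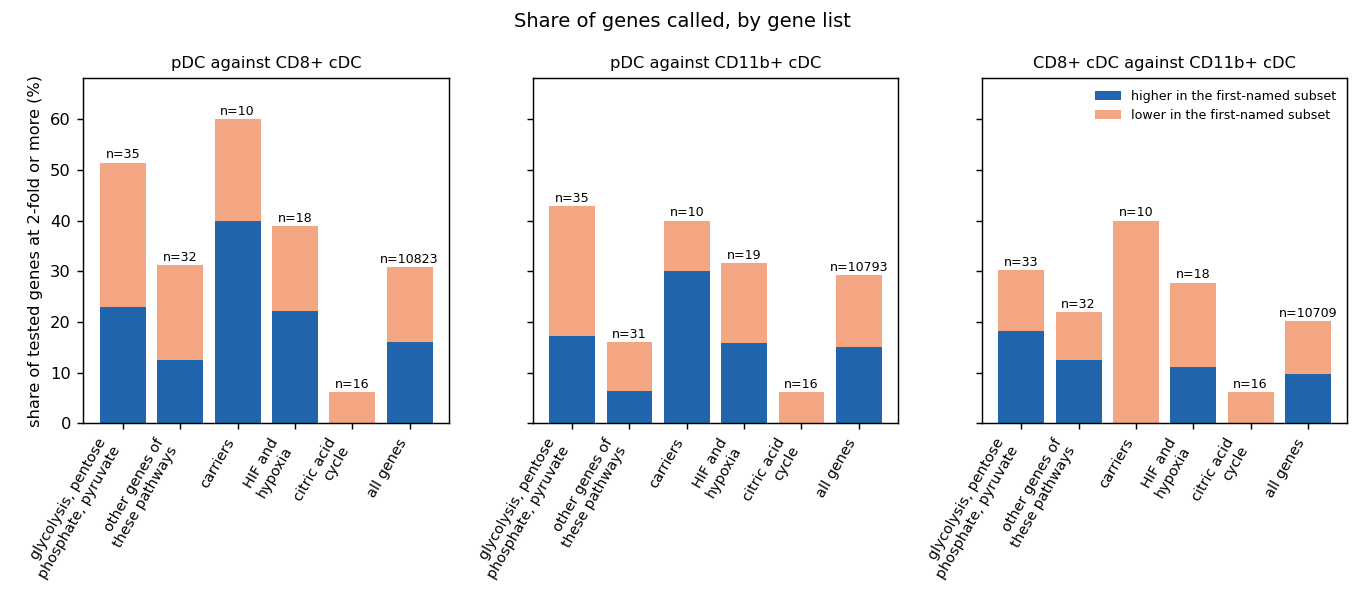
Share of tested genes at 2-fold or more (y axis, percent) for the list, the other genes of its pathways, carriers, HIF and hypoxia genes, the citric acid cycle and all genes, in 1 panel per pair; n above each bar is the number of genes tested. The list stands at 51.4%, 42.9% and 30.3% and all genes at 30.8%, 29.3% and 20.1%.

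Probe sets of the same gene give the only measure of error in these files. Over the 19 genes of the list with at least 2 probe sets above background, the log2 differences of the first and second probe set were apart by an SD of 1.24 between pDC and CD8+ cDC, 1.18 between pDC and CD11b+ cDC and 1.06 between the conventional subsets. Over all 4966 such genes these SDs were 0.91, 0.87 and 0.75. The second probe set repeated the call of the first for 4 of 8, 5 of 7 and 4 of 6 genes in these pairs (50%, 71.4% and 66.7%, against 66.2%, 67.6% and 58.8% of all genes so called), and gave the opposite call for 0. Calls of Pgam2, Eno2, Eno3, Hk2, Pgls, Pgam1, Pkm, Taldo1, Rpia and Pfkfb4 rest on 1 probe set each, as does that of Pfkfb2 above background.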

How the data were processed

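Total RNA of sorted DC was hybridised to Affymetrix mouse arrays, 1 per subset, and per the labels' protocols the biotin-labelled cRNA was amplified from 20 ng. The authors' deposited values are 1 linear intensity per probe set and array. Per the submitters' processing notes they were made with MAS5, with no version. Medians over all probe sets were 97.8, 99.6 and 97.8 for pDC, CD8+ cDC and CD11b+ cDC, and 1063, 1072 and 1073 probe sets exceed 65535, the limit of a 16-bit reading, and any scaling step behind this is not stated in the labels. Gapdh, Tkt and Taldo1 are among them on all arrays. Pgk1, Ldha and Pgd also exceed 65535 in CD8+ cDC, and Ldha does in CD11b+ cDC. The number of arrays limits the precision.

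Genes were named by the platform annotation. It lists 1 gene for 34958 probe sets, several for 932 and none for 9211. The 38 genes found matched a GRCm38.p6 gene table by number. Another 4 probe sets list a gene of the list beside others and were left out. The background level is the 95th percentile of the receptor probe sets on the array where it was highest. Medians run over genes above background on either array. Python 3.11.15, numpy 2.4.6 and pandas 2.3.3 were used. The calling code was checked on simulated arrays with known changes beyond the call limit and little noise. That check cannot gauge the error of the calls reported here.

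The 42 genes and all lists were chosen with earlier results of these data known. Named were all genes of the list. Of the neighbouring pathways, some of the called genes with the largest differences per pair and direction were named, at most 4 each, and others were left out. Alternatives were scaling on 18 spike-in probe sets, scaling on 100 ribosomal protein probe sets, the mean over probe sets, other floors and other folds.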

Additional observations from a re-analysis of the deposited data

How the results depend on the processing

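No paired analysis was possible because each subset is 1 array, and for the same reason no array could be left out. Spike-in scaling moved the median log2 difference of the list to 0.35 for pDC minus CD8+ cDC and to -0.98 for CD8+ cDC minus CD11b+ cDC. Ribosomal protein scaling moved it to 0.31 for pDC minus CD8+ cDC and 0.48 for pDC minus CD11b+ cDC. The all-gene medians moved with them, to 0.65 and -0.95 and to 0.59 and 0.65. Relative to all genes the list's median for pDC minus CD8+ cDC was -0.29 as deposited, -0.30 with spike-ins and -0.28 with ribosomal protein genes. A scaling shifts every gene of a pair alike, so apart from the floor this offset could not change, and its constancy is no evidence of stability. Counts moved by over 1.5 times in these cases. With spike-ins 16 genes were lower in CD8+ cDC than in CD11b+ cDC, and with ribosomal protein genes 3 were lower in pDC than in CD11b+ cDC. Of the counts of genes highest or lowest on 1 array, whose alternatives were chosen after seeing the data, ribosomal protein scaling gave 7 highest and 3 lowest in pDC. Spike-ins gave 3 highest and 7 lowest in CD8+ cDC and 6 highest in CD11b+ cDC, and the mean over probe sets 1 lowest in CD11b+ cDC. At 1.5-fold 10 were higher in CD8+ cDC than in CD11b+ cDC. At 4-fold 2 were higher and 5 lower in pDC than in CD8+ cDC, 3 lower in pDC than in CD11b+ cDC, and 0 lower in CD8+ cDC than in CD11b+ cDC. Each scaling shifted a pair by less than 2-fold, and a floor keeps the order. Only the mean over probe sets could therefore reverse a call. No called difference changed sign under any scaling, floor or mean over probe sets. Under all 5 of these, 13 of 18, 7 of 15 and 8 of 10 calls kept their direction and stayed past 2-fold for pDC against CD8+ cDC, pDC against CD11b+ cDC and CD8+ cDC against CD11b+ cDC. Sizes moved among those kept: Aldoc in CD8+ cDC minus CD11b+ cDC was 4.26 as deposited and 2.59 at the lowest, and Eno2 in pDC minus CD8+ cDC -3.93 and -1.93. Pgam2, Ldhb, Pgls, Hk2, Pfkfb3 and Eno3 are among those kept in both pDC pairs. Values near background, such as Eno2 in pDC, are bounds only.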

Other observations

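Probe sets that list Gapdh beside pseudogenes or other genes, and so were not counted, were also dimmest in pDC. The brightest, listing 5 genes, gave 61971 in pDC, 127694 in CD8+ cDC and 142447 in CD11b+ cDC. The other 2 gave 509 and 554 in pDC, 1060.5 and 643 in CD8+ cDC and 926 and 643 in CD11b+ cDC. A probe set listing 6 genes, Hk1 among them, gave 694492, 780577 and 672497, unlike the order of both probe sets of Hk1 alone.

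Several genes of the list lay close to the 2-fold limit. Just above it were Pdha1 (2.08-fold), Hk1 (2.17-fold), Pfkfb4 (2.20-fold) and Rpia (2.24-fold) for pDC and CD8+ cDC. For pDC and CD11b+ cDC they were Pkm (2.06-fold), Tpi1 (2.12-fold), Gapdh (2.18-fold) and Taldo1 (2.19-fold). For the conventional subsets Pgam1 (2.23-fold) lay just above. Just below the limit were Ldha (1.97-fold), Gapdh (1.96-fold) and Pkm (1.87-fold) for pDC and CD8+ cDC and Pfkfb3 (1.83-fold) for the conventional subsets.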
